A study of Mus musculus with 6 samples.

Results

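The replication-dependent histone genes of the mouse were taken as the gene symbols that begin with Hist1h, Hist2h, Hist3h or Hist4h, which gave 68 of the 23183 symbols listed in every library. They comprised 6 genes for the linker histone H1, 18 for H2A, 19 for H2B, 12 for H3 and 13 for H4. The 19 for H2B include Hist3h2bb-ps, a pseudogene by its symbol. The family was picked because several of its genes were listed at 0 in every WT library and above 0 in every KO library. The KO and WT values of the members are therefore given as a description without a test, and the named members and gene lists were chosen with earlier results of these data known. RNA was sequenced from brain microvessels of 3 WT mice (TEK-cre, *Crif1* +/+) and 3 TEKCRIF1 KO mice (TEK-cre, *Crif1* flox/flox), all C57BL/6, with 1 library per mouse. Both groups carried the Cre transgene, whose Tek promoter acts mainly in endothelial cells, and the microvessel preparation also holds other cells. Age was not given in the sources used here, nor was it stated whether the libraries were made from poly(A)-selected or from rRNA-depleted RNA.

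Histones package DNA into nucleosomes, in which H2A, H2B, H3 and H4 form the core and H1 binds the linker DNA. The replication-dependent genes lie in clusters, lack introns in most cases and are transcribed mainly in S phase, when new DNA has to be packaged. Their RNA ends just after a short stem-loop instead of in a poly(A) tail, and the stem-loop binding protein Slbp and the U7 small nuclear ribonucleoprotein make that end. In cells that do not divide, some of these genes also give RNA that runs past the stem-loop and carries a poly(A) tail. The replication-independent variants such as H3.3 and H2A.Z come from ordinary polyadenylated mRNA and are made through the whole cell cycle.

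The stem-loop was read from the annotated transcripts, because it is the element that sets this family apart from other mRNA. A 16-base histone stem-loop was found in 46 of the 68 members (67.6%) and in 13 of 22080 other symbols with a GENCODE M21 transcript (0.0589%). The search followed the histone stem-loop consensus on the transcript strand, and the members held 8 spellings of it. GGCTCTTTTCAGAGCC was the most frequent, in 26 members of the types H1, H2A, H2B and H3. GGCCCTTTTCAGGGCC was found in 7 members, all of type H4. The sequences below are those of the 5 members listed at 0 in every WT library and above 0 in every KO library, printed 5′ to 3′ as DNA with the stem-loop in capitals.

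Hist1h2bh: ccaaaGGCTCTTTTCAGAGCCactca
Hist1h3d: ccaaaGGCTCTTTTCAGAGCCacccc
Hist1h3g: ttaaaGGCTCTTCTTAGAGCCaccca
Hist1h4m: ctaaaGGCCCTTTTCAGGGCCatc
Hist4h4: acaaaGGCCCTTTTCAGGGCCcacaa

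All 5 held a stem-loop, and Hist1h3g was the only member with its spelling. The annotated transcript of Hist1h4m ended 3 bases after the stem-loop and that of Hist1h3g 47 bases after it. The annotated transcripts of Hist1h3d, Hist1h2bh and Hist4h4 ran on for 752, 1214 and 2445 bases past the stem-loop, so the 5 members did not share 1 kind of annotated end.

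The promoters were searched for 3 sets of letters, on both strands, in the RefSeq windows from 250 bases before to 50 bases after the gene start. No set of letters is contained in another. TATAAA, the core of a TATA box, was found in 35 of the 62 members with a window (56.5%) and in 14.1% of 26963 windows of other genes. CCAAT was found in 53 of the 62 (85.5%) and in 37.8% of the others. It was present in every window of the types H1, H2A, H2B and H3, but in 3 of 12 windows of H4 genes (25%). ATTTGCAT, the octamer that the Pou2f1 protein binds, was found in 7 of 18 H2A and 6 of 16 H2B windows and in 0 windows of the other types, against 1.71% of other genes. Of the 5 promoters 3 are printed from 120 bases before to 20 bases after the start, with TATAAA and CCAAT in capitals as they lie on the gene's strand (TTTATA and ATTGG being the same letters on the opposite strand), because they show the range from several matches to none.

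Hist1h3d, GRCm38.p6 chr13:23575643-23575782, plus strand: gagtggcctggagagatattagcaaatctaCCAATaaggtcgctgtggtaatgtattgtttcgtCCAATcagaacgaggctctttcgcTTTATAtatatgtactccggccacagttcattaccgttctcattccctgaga
Hist1h2bh, GRCm38.p6 chr13:23543425-23543564, minus strand: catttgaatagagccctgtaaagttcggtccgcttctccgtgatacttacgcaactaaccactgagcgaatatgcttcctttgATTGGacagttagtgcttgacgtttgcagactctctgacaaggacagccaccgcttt
Hist4h4, GRCm38.p6 chr6:136804412-136804551, minus strand: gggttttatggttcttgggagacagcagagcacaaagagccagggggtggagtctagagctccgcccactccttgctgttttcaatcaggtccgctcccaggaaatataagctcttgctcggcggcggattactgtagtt

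The window of Hist1h3d held CCAAT at 2 places and TATAAA, that of Hist1h2bh held CCAAT alone, and that of Hist4h4 held none of the 3 sets of letters. The letters that a pair of these promoters shares are a description, and nothing follows from an absent match.

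By position, 54 members lay on chromosome 13 between 21715711 and 23934913, 10 on chromosome 3 between 96219885 and 96270192, 3 on chromosome 11 between 58948911 and 58955192, and Hist4h4 alone on chromosome 6 (GRCm38.p6). The longest GENCODE transcript had a single exon for 63 of the 68. Many members are near copies of each other, so a fragment can match several of them. The longest annotated transcripts of the 68 members were compared with each other, and transcripts of other genes were not searched. Of the 68 genes, 24 shared over 50% of their 100-base windows with other members and 10 shared none. Hist2h2aa2 shared 100% of its windows, mainly with Hist2h2aa1, and its values were at most 0.000773 FPKM, far less than a single fragment is worth. The split of fragments between such copies is uncertain, whereas Hist4h4, Hist2h4, Hist1h4d, Hist3h2a and Hist2h2be shared no window with another member.

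Gadd45gip1, the symbol of *Crif1*, was listed at 18.8, 15.3 and 16.5 FPKM in WT 1 to WT 3 and at 10.8, 7.54 and 10.4 FPKM in KO 1 to KO 3, in the direction of the labels. FPKM counts fragments per length of exon and per depth of the library. The spacing of the lowest values gave an estimated depth of 8900000 to 12000000 fragments in the WT libraries and of 8100000, 6400000 and 12000000 fragments in KO 1 to KO 3. A transcript of 500 bases with 3 fragments would then have between 0.51 and 0.93 FPKM, a limit that covers counting error only. All 5 endothelial markers (Pecam1, Cdh5, Cldn5, Flt1 and Slco1a4) were above 0 in every library, and their summed level, most of it from Cldn5, was 677 to 944 FPKM in WT mice and 600 to 808 FPKM in KO mice. Cdh5, the cadherin of endothelial junctions, was lower in KO mice without overlap, at 86.7, 92.35 and 91.3 FPKM in WT 1 to WT 3 and at 50.8, 42.5 and 38.1 FPKM in KO 1 to KO 3 (log2 fold change −1.03 ± 0.19, standard error; p = 0.000303 by limma, 0.841 after adjustment; exact permutation p = 0.1), while the other 4 overlapped between the groups. The part of Cdh5 in the histone values was not tested. In the column headers of the files, the names of KO 1 and KO 2 have no hyphen, unlike those of the other 4 libraries, and the sources do not say what the hyphen stands for. Whether KO 1 and KO 2 were prepared apart from the rest was not given in the sources used here, and they are also the libraries with the highest H3, H4 and total histone sums, so a difference in preparation and the genotype could not be told apart in their values. In bulk tissue, fewer cells of a type and less RNA per cell cannot be told apart.

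In all, 5 members were listed at 0 in every WT library and above 0 in every KO library: Hist1h2bh, which encodes H2B, Hist1h3d and Hist1h3g, which encode H3, and Hist1h4m and Hist4h4, which encode H4. The same pattern was found for 48 of all 23183 symbols (0.207%), and nothing is read from the comparison because the family was chosen by it. Only 6 of the 48 symbols averaged 1 FPKM or more, the 5 histone genes and Cox8b, a subunit of cytochrome c oxidase. Without KO 3 the number of members with the pattern was 8, and with KO 3 as the sole KO library it was 7. With fewer libraries such a number can only stay the same or rise.

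Hist1h2bh (chr13:23542923-23543444, GRCm38.p6) was listed at 0 in WT 1 to WT 3 and at 2.65, 2.18 and 4.99 FPKM in KO 1 to KO 3. It was the only one of the 5 with its highest value in KO 3. Hist1h3d (chr13:23575763-23576266) was listed at 0 in the WT libraries and at 4.43, 4.16 and 1.32 FPKM in KO 1 to KO 3. Hist1h3g (chr13:23535418-23535909) was listed at 0 in the WT libraries and at 3.36, 4.32 and 1.38 FPKM in KO 1 to KO 3. Both H3 genes were thus higher in KO 1 and KO 2 than in KO 3.

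Hist1h4m (chr13:21811746-21812150) was listed at 0 in the WT libraries and at 4.22, 4.04 and 0.791 FPKM in KO 1 to KO 3. Its transcript shared 88.1% of its 100-base windows with those of other members, most of them with Hist1h4n, which was listed at 0 in all 6 libraries. Hist4h4 (chr6:136803993-136804431) was listed at 0 in the WT libraries and at 2.06, 3.50 and 1.36 FPKM in KO 1 to KO 3. Its GENCODE transcript shared no identical 100-base window with that of another member, and transcripts of other genes were not searched.

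The fragments behind these values can be estimated only with an assumed length, and a longer length in the authors' annotation would mean more fragments. Over the RefSeq span of Hist4h4, 439 bases, they correspond to about 7.3, 9.8 and 7.1 fragments in KO 1 to KO 3, and for Hist1h4m the value in KO 3 corresponds to about 3.8 fragments. A listing at 0 allows up to 0.569 to 0.768 FPKM for Hist4h4 in the WT libraries and up to 0.617 to 0.832 FPKM for Hist1h4m. The value of Hist1h4m in KO 3 lay below the upper end of that range, while the other KO values of the 5 members lay above the limits of their own gene. At a limit of 0.1 FPKM in place of 0 the number of members stayed at 5, and it was 4 at a limit of 1 FPKM.

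**Figure D1:**
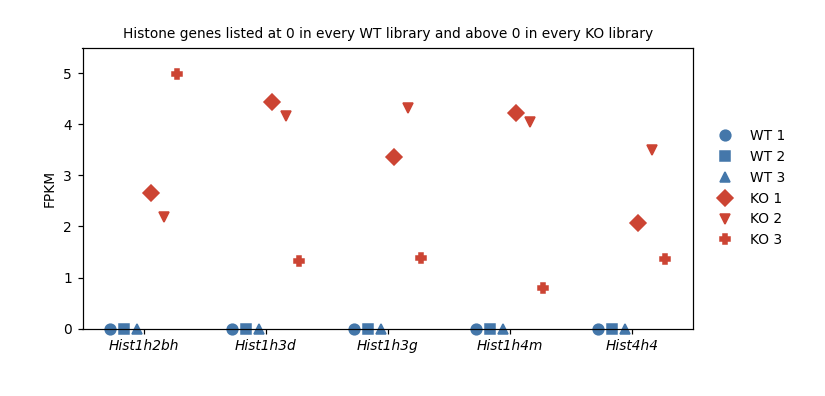
FPKM (vertical axis) of the 5 histone genes listed at 0 in every WT library and above 0 in every KO library, with 1 point per library (blue WT, red KO). All WT points sit at 0, the KO points lie between 0.791 and 4.99 FPKM, and KO 3 is the lowest KO library for 4 of the 5 genes.

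The number of members detected differed between libraries. Members above 0 numbered 29, 34 and 31 in WT 1 to WT 3 and 39, 50 and 39 in KO 1 to KO 3. Each KO library listed more members than any WT library. These counts include the 5 members that led to the choice of the family, which count in every KO and no WT library. Nothing is therefore read from the order. The lowest estimated depth of the 6 was that of KO 2. Over all symbols, the share above 0 was 70.8%, 70.0% and 72.5% in WT 1 to WT 3 and 70.2%, 73.4% and 72.8% in KO 1 to KO 3, which overlapped between the groups. For symbols with a transcript under 600 bases that are no members, 131, 137 and 152 of 719 were above 0 in WT 1 to WT 3 and 149, 169 and 160 in KO 1 to KO 3. The most short symbols were listed in KO 2, as were the most members.

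In all 6 libraries 8 members were at 0: Hist1h1t, Hist1h2aa and Hist1h2ba, which encode histones of the male germ line, and Hist1h2an, Hist1h2bp, Hist1h4n, Hist2h3c1 and Hist2h3c2. The 5 germ cell markers fixed for comparison were at 0 in 5 of the 6 libraries, with 0.343 FPKM in all in KO 2. Another 12 members were above 0 in all 6 libraries, among them Hist1h1c, Hist1h1d, Hist1h1e, Hist1h2bc, Hist2h2be, Hist3h2a and Hist1h3e. Another 3 members were listed at 0 in every KO library and above 0 in a WT library, as 2.74% of all symbols were, namely Hist1h2ao, Hist1h2ap and Hist1h2bq, which were named after their values were seen. All 3 are near copies that share over 50% of their windows, and their highest value was 1.98 FPKM (Hist1h2ap, WT 1). No member was at 0 in every KO and above 0 in every WT library, which 0.0776% of all symbols were. In the other direction, 15 members were at 0 in every WT library and above 0 in at least 1 KO library, as 4.15% of all symbols were. The family was chosen by this contrast, so nothing is read from these counts.

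Of these 15, Hist1h2ab, Hist1h2ac, Hist1h3h and Hist1h3i were above 0 in KO 2 and in no other library. Hist1h2ah, Hist1h3f and Hist2h2ab were above 0 in KO 1 and KO 2 and at 0 in KO 3. Hist2h2ab, which encodes H2A, was listed at 0 in the WT libraries and in KO 3 and at 8.81 and 4.68 FPKM in KO 1 and KO 2. Members with a value above that of every WT library numbered 22 in KO 1, 29 in KO 2 and 16 in KO 3. Among the 46 members that averaged 1 FPKM or more the numbers were 20, 24 and 12 (43.5%, 52.2% and 26.1%). Of the 14247 genes with such a mean, 31.1%, 28.7% and 29.2% lay above every WT value in KO 1 to KO 3. The 46 include the 5 members that led to the choice of the family, which count in every KO library. Others of the 46, such as Hist2h2ab, were at 0 in every WT library and reached this mean only through KO values. Nothing is therefore read from these shares.

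**Figure D2:**
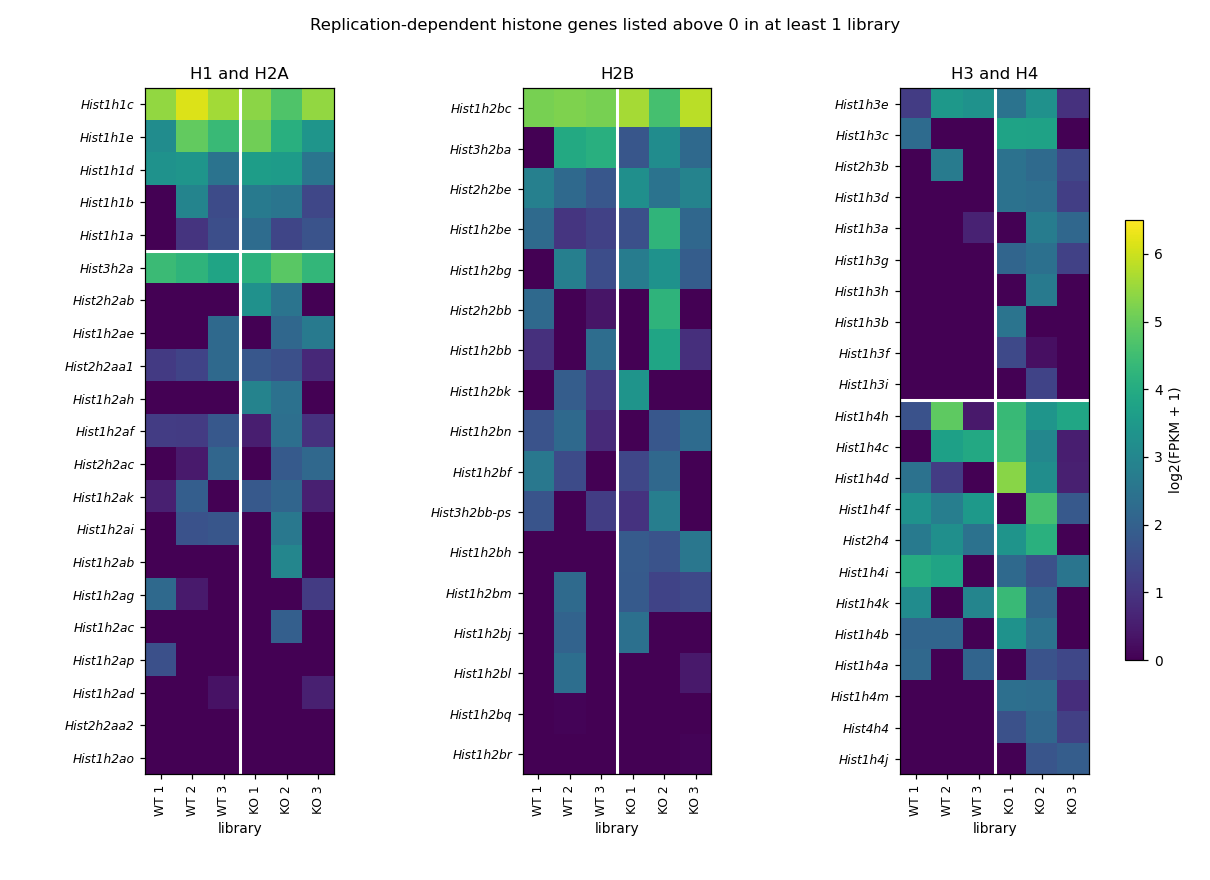
log2(FPKM + 1), by colour, of the 60 histone genes above 0 in at least 1 library (rows, by type and in order of mean FPKM) in the 3 WT and 3 KO libraries (columns). Hist1h1c and Hist1h2bc are high in every library, while most H3 rows are dark in the WT libraries and lighter in KO 1 and KO 2.

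The level of the family was carried by a few genes. In WT mice the summed level was 84.1 ± 29.6 FPKM for H1, 67.8 ± 11.7 for H2B, 54.3 ± 16.6 for H4, 28.0 ± 1.72 for H2A and 10.1 ± 5.32 for H3 (SD, n = 3). The ranges of H1, H2B and H4 overlapped, although the order H1, H2B, H4 held in each WT library, whereas the lowest H4 sum (39.6 FPKM) lay above the highest H2A sum (29.3 FPKM) and the lowest H2A sum (26.1 FPKM) above the highest H3 sum (15.7 FPKM). The 3 highest members of a library made up 48.2%, 43.8% and 47.0% of its histone sum in WT 1 to WT 3. The share was 33.2% in KO 1, 20.6% in KO 2 and 55.0% in KO 3, so that the sum was spread over more genes in KO 1 and KO 2.

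Hist1h1c, which encodes a linker histone, had the highest mean of the family. Its values were 42.6, 70.5 and 47.6 FPKM in WT 1 to WT 3 and 40.0, 25.1 and 42.8 FPKM in KO 1 to KO 3, or 53.5 ± 14.9 and 36.0 ± 9.51 FPKM (SD, n = 3 each). The groups overlapped by KO 3, and the difference on log2(FPKM + 1) was −0.56. Its annotated transcript runs 840 bases past the stem-loop. Hist1h1e, another linker histone, was listed at 8.0, 29.4 and 20.1 FPKM in WT 1 to WT 3 and at 32.9, 16.3 and 9.53 FPKM in KO 1 to KO 3, with a difference of 0.03. The spread within each group was far larger than that difference.

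The summed level of H1 was 59.5, 117 and 75.9 FPKM in WT 1 to WT 3 and 93.4, 58.6 and 60.9 FPKM in KO 1 to KO 3. The groups overlapped, and the log2 ratio of the KO to the WT mean was −0.25. H1 was the only type with a ratio below 0 over all libraries, and without WT 2 its ratio was 0.07.

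Among the H2A genes, Hist3h2a was listed at 20.7, 17.7 and 12.9 FPKM in WT 1 to WT 3 and at 17.1, 27.4 and 18.6 FPKM in KO 1 to KO 3 (17.1 ± 3.95 and 21.0 ± 5.57 FPKM; SD, n = 3 each). The difference of 0.28 on log2(FPKM + 1) was smaller than the SD of either group, 0.33 and 0.35. The summed level of H2A was 29.3, 26.1 and 28.8 FPKM in WT 1 to WT 3 and 37.7, 67.0 and 31.3 FPKM in KO 1 to KO 3. Every KO sum lay above every WT sum, with KO 3 just above WT 1, and the log2 ratio of the means was 0.69. Without KO 2 it was 0.30.

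Among the H2B genes, Hist1h2bc was listed at 34.9, 36.6 and 34.7 FPKM in WT 1 to WT 3 and at 47.9, 22.9 and 55.9 FPKM in KO 1 to KO 3. The SD of the WT values was 1.08 FPKM, whereas the KO values lay on both sides of them with an SD of 17.2 FPKM. Hist3h2ba was listed at 0, 14.4 and 16.2 FPKM in WT 1 to WT 3 and at 2.35, 8.0 and 3.70 FPKM in KO 1 to KO 3, and its groups overlapped. The summed level of H2B was 58.6, 81.0 and 63.9 FPKM in WT 1 to WT 3 and 87.8, 109 and 84.2 FPKM in KO 1 to KO 3. Every KO sum lay above every WT sum, with KO 3 just above WT 2, and the log2 ratio was 0.47. The sums include Hist1h2bh, which led to the choice of the family, at 0 in the WT libraries and at 4.99 FPKM in KO 3. That value is larger than the gap between KO 3 and WT 2, so nothing is read from the order of the sums.

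The H3 genes had the largest ratio of the 5 types. Their summed level was 5.09, 15.7 and 9.46 FPKM in WT 1 to WT 3 and 35.9, 46.1 and 8.67 FPKM in KO 1 to KO 3, with a log2 ratio of 1.59. KO 1 and KO 2 lay above every WT library, whereas KO 3 lay within the WT range, and with KO 3 as the sole KO library the ratio was −0.22. Only 2 of the 12 H3 genes were above 0 in each WT library, against 7, 9 and 5 in KO 1 to KO 3. Hist1h3d and Hist1h3g, which led to the choice of the family, count in every KO library and in no WT library. Both also add to the KO sums and to the ratio, so nothing is read from these numbers. Hist1h3e was listed at 1.23, 10.1 and 8.91 FPKM in WT 1 to WT 3 and at 4.55, 8.81 and 0.897 FPKM in KO 1 to KO 3, and it was the only H3 gene above 0 in all 6 libraries. Hist1h3c was listed at 3.86 FPKM in WT 1, at 12.7 and 12.5 FPKM in KO 1 and KO 2 and at 0 in the other 3 libraries.

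The H4 genes varied widely between libraries. Hist1h4h was listed at 2.13, 28.6 and 0.354 FPKM in WT 1 to WT 3 and at 19.9, 9.48 and 13.4 FPKM in KO 1 to KO 3. Hist1h4c was listed at 0, 11.9 and 14.2 FPKM in WT 1 to WT 3 and at 21.1, 7.02 and 0.463 FPKM in KO 1 to KO 3. Both genes varied strongly within the WT group, and the groups overlapped. Hist1h4f had the lowest difference of the family, −1.06 on log2(FPKM + 1), with 8.94, 5.89 and 10.5 FPKM in WT 1 to WT 3 and 0, 23.1 and 2.55 FPKM in KO 1 to KO 3. Its highest and its lowest value were both in KO mice, and its mean FPKM was not lower in KO mice. The summed level of H4 was 51.1, 72.3 and 39.6 FPKM in WT 1 to WT 3 and 129, 85.9 and 28.3 FPKM in KO 1 to KO 3. KO 1 and KO 2 lay above and KO 3 below every WT library. The log2 ratio was 0.58, 0.07 without KO 1 and −0.94 with KO 3 as the sole KO library.

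In KO 1, 39.5 FPKM of the H4 sum came from Hist1h4d, named after its values were seen, which was listed at 4.46, 1.24 and 0 FPKM in WT 1 to WT 3 and at 8.10 and 0.481 FPKM in KO 2 and KO 3. Summed over all 68 members the level was 204, 312 and 218 FPKM in WT 1 to WT 3 and 384, 367 and 213 FPKM in KO 1 to KO 3. KO 1 and KO 2 were again above every WT library and KO 3 within the WT range. The log2 ratio of the means was 0.39, and −0.20 with KO 3 as the sole KO library.

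**Figure D3:**
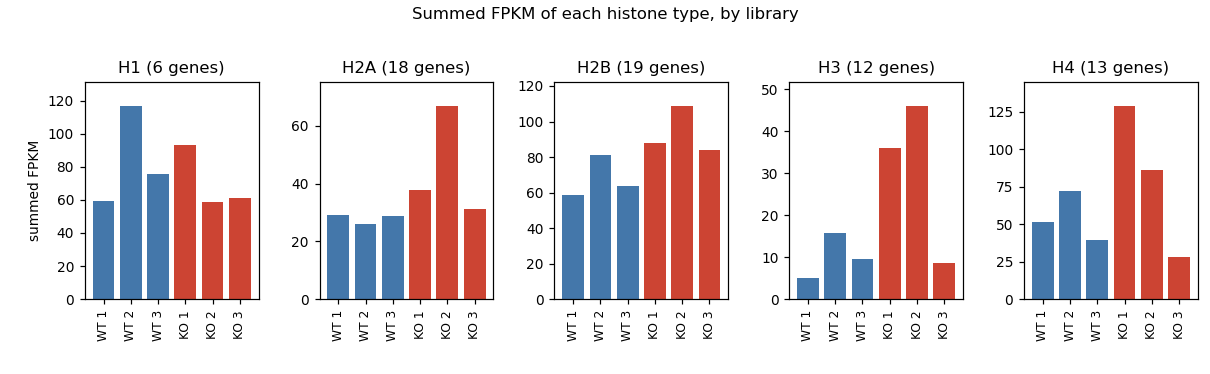
Summed FPKM (vertical axis, from 0, with its own scale in each panel) of the genes of each histone type in the 6 libraries (blue WT, red KO). The H3 and H4 bars of KO 1 and KO 2 stand above those of WT mice while the bars of KO 3 do not, at 8.67 FPKM for H3 and 28.3 FPKM for H4.

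Over the 6 libraries, 46 of the 68 members averaged 1 FPKM or more. A gene at 0 in WT mice passes such a limit only through its KO values, so counts over these 46 are given as a description. Every KO value lay above every WT value for 5 of the 46, the same 5 genes that were at 0 in WT mice, and the reverse held for 0. When 1 library was left out the first number was 6 to 12, the highest without KO 3, and the second 0 to 3. With fewer libraries such numbers can only stay the same or rise. Over the 14247 genes with such a mean, every KO value lay above every WT value for 5.37% and below for 5.70%. The median difference on log2(FPKM + 1) was 0.50 over the 46 members and −0.01 over the 14247 genes, and 34 of the 46 (73.9%) had a higher mean on this scale in KO mice, against 49.2% of the 14247 genes. Over all 68 members, the 5 largest differences were those of Hist1h2bh (2.04), Hist1h3d (2.01), Hist2h2ab (1.93), Hist1h3g (1.93) and Hist1h4m (1.85). The 5 smallest were those of Hist1h4f (−1.06), Hist1h2bl (−0.64), Hist1h1c (−0.56), Hist1h2ap (−0.53) and Hist1h2ag (−0.52), of which Hist1h2bl, Hist1h2ap and Hist1h2ag averaged under 1 FPKM.

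Hist1h2bl, which encodes H2B, was listed at 4.09 FPKM in WT 2, at 0.351 FPKM in KO 3 and at 0 in the other 4 libraries. Hist1h2ag, which encodes H2A, was listed at 3.67 and 0.386 FPKM in WT 1 and WT 2, at 1.19 FPKM in KO 3 and at 0 in the other 3 libraries. The lowest differences outside Hist1h1c and Hist1h4f thus came from genes seen in 3 libraries or fewer. By type the median difference of the members that averaged 1 FPKM or more was 0.18 for H1, 0.57 for H2A, 0.39 for H2B, 1.58 for H3 and 0.13 for H4.

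Members with a higher mean in KO mice were found among both short and longer transcripts. The longest GENCODE transcript was under 600 bases for 37 members and 600 bases or more for 31. Where the average reached 1 FPKM, the 25 short members had a median difference of 0.49 on log2(FPKM + 1) and the 21 longer ones of 0.62. The order of these medians turned with the RefSeq gene span in place of the GENCODE length, to 0.50 for short and 0.18 for longer members. It also turned without WT 1 (0.59 and 0.45), without KO 1 (0.49 and 0.44) and without KO 3 (1.02 and 0.77), and without the limit of 1 FPKM the medians were 0.13 and 0.28. The 5 members at 0 in WT mice fell in both classes, with 2 short and 3 longer transcripts. Among other genes, 147 short genes that are no members had a median difference of 0.33, with 99 of them (67.3%) higher in KO mice, against −0.01 and 48.8% over 13554 genes with longer transcripts. With each library left out, the median of the longer members lay between 0.44 and 0.78.

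**Figure D4:**
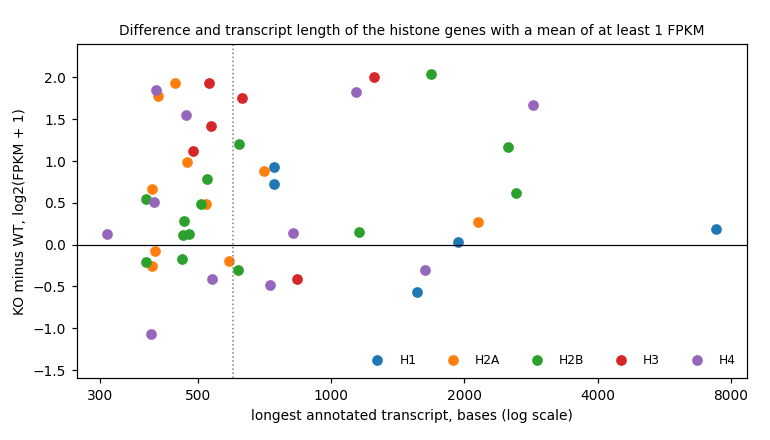
Difference between KO and WT means on log2(FPKM + 1) (vertical axis) against the longest annotated transcript in bases (log axis) of the 46 histone genes that averaged 1 FPKM or more, coloured by type, with the limit of 600 bases dotted. Values above 1.5 occur on both sides of the limit, and the medians are 0.49 and 0.62.

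The members were also compared by where the annotated transcript ends. The 22 members whose transcript ends at most 60 bases after the stem-loop had a median of their mean level of 1.51 FPKM, and the 18 whose transcript runs over 300 bases past it had a median of 5.36 FPKM. FPKM divides by transcript length, and the annotation the authors used was not given in the sources used here, so these levels depend on lengths that may differ from the ones used by the authors. The summed level of the first class was 27.1, 51.6 and 23.8 FPKM in WT 1 to WT 3 and 61.4, 80.7 and 30.1 FPKM in KO 1 to KO 3. That of the second class was 110, 173 and 114 FPKM in WT 1 to WT 3 and 192, 155 and 96.3 FPKM in KO 1 to KO 3. The 22 members without a stem-loop in the annotated transcript summed to 58.7, 67.4 and 54.6 FPKM in WT 1 to WT 3 and to 109, 95.3 and 73.5 FPKM in KO 1 to KO 3. The remaining 6 members, with over 60 and at most 300 bases after the stem-loop, summed to 7.45, 20.4 and 25 FPKM and to 20.6, 35.3 and 13.4 FPKM. All 3 KO libraries lay above every WT library in the class without a stem-loop, and KO 1 and KO 2 in the class that ends near it. KO 1 alone did so in the class that runs over 300 bases past it and KO 2 alone in the class of 6. In the class without a stem-loop, Hist1h2bc alone was at 34.9, 36.6 and 34.7 FPKM in WT 1 to WT 3. It was at 47.9, 22.9 and 55.9 FPKM in KO 1 to KO 3 and made up most of the KO 3 sum. Whether the classes differ was not tested.

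The summed level of other RNAs without a poly(A) tail was highest in KO 1 and KO 2 as well. A list of 129 such symbols, small nucleolar and small nuclear RNAs together with Rmrp, Rpph1, Terc, Malat1 and Neat1, held 31 symbols above 0, and the other symbols of the list were at 0 in all 6 libraries. Their summed level was 4931, 11630 and 4858 FPKM in WT 1 to WT 3 and 59081, 22333 and 3917 FPKM in KO 1 to KO 3. As for H3 and H4, KO 1 and KO 2 lay above every WT library and KO 3 did not. The single RNAs varied, and both KO 1 and KO 2 lay above every WT library for 15 of the 31 symbols. The highest value was in KO 1 for 20 symbols and in KO 2 for 8, where 18.6% and 21.3% of all genes tested had theirs. It was in a WT library for 3, which were named after their values were seen. Of these 3, Snora17 and Snord8 were above 0 in WT 3 alone and Snord49b, at 8069 FPKM, in WT 2 alone. The part of these RNAs in the histone values was not tested.

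Rmrp, the RNA of an endoribonuclease, was listed at 1317, 888 and 569 FPKM in WT 1 to WT 3 and at 4942, 4059 and 764 FPKM in KO 1 to KO 3. Its log2 fold change by limma was 1.51 ± 0.65 (standard error), with p = 0.0425, or 0.841 after adjustment, and an exact two-sided permutation p of 0.3. Rpph1, the RNA of RNase P, was listed at 298, 140 and 201 FPKM in WT 1 to WT 3 and at 1509, 1959 and 214 FPKM in KO 1 to KO 3. Its log2 fold change by limma was 2.08 ± 0.70 (standard error), with p = 0.0142, or 0.841 after adjustment, and an exact permutation p of 0.2. For both RNAs the values of KO 3 lay within the WT range and those of KO 1 and KO 2 were several times higher.

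Terc, the RNA of telomerase, was listed at 0 in every WT library and in KO 3 and at 20.05 and 5.60 FPKM in KO 1 and KO 2. Malat1, a long nuclear RNA whose end is a triple helix, was listed at 1834, 1778 and 2050.3 FPKM in WT 1 to WT 3 and at 3202, 2218 and 1976 FPKM in KO 1 to KO 3. The excess of Malat1 in KO 1 and KO 2 was smaller than that of Rmrp and Rpph1, and its KO 3 value lay within the WT range. Of the 31 symbols, 7 had an unadjusted limma p under 0.05 and were higher in KO mice, where 2.77% of all genes tested did so, and 0 were lower. They were Rmrp, Rpph1, Terc, Snora31, Snora70, Snord104 and Snord22, all with a limma adjusted p of 0.841. Terc, Snora31, Snora70 and Snord104 were at 0 in every WT library and in KO 3. They reached a mean of 1 FPKM only through KO 1 and KO 2, so nothing is read from the number beside that share. Snord104, a small nucleolar RNA with the highest mean of the list, was listed at 0 in every WT library and in KO 3 and at 11975 and 8549 FPKM in KO 1 and KO 2. FPKM of so short a transcript rises steeply with each fragment. Without KO 2 their number was 0 and without KO 3 it was 17.

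**Figure D5:**
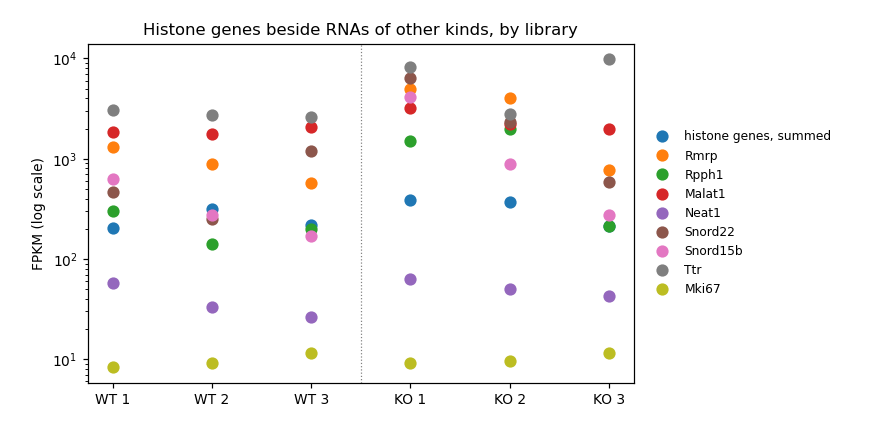
FPKM (log axis) in each library of all histone genes summed, of the RNAs Rmrp, Rpph1, Malat1, Neat1, Snord22 and Snord15b, of the choroid plexus gene Ttr and of the proliferation gene Mki67. The histone sum, Rmrp and Rpph1 are higher in KO 1 and KO 2 than in KO 3, Ttr is high in KO 1 and KO 3, and Mki67 stays between 8.29 and 11.6 FPKM.

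The list of S phase and proliferation holds genes of DNA replication, which takes place in the phase in which the histone genes are transcribed, and genes of dividing cells that act mainly later in the cycle, such as Ccnb1 and Cdk1. Of 33 listed genes 32 were tested, and for 0 of them, in either direction, was the limma p under 0.05 before adjustment, where 2.77% of all genes tested were higher and 3.11% lower. Without WT 2 or without KO 3 the number was 1. Their median log2 fold change was 0.06 and their summed level was 287, 344 and 310 FPKM in WT 1 to WT 3 and 351, 296 and 313 FPKM in KO 1 to KO 3. Pcna, the sliding clamp of the replication fork, was at 57.0, 65.2 and 50.7 FPKM in WT 1 to WT 3 and at 78.4, 54.2 and 54.3 FPKM in KO 1 to KO 3 (log2 fold change 0.10 ± 0.22, standard error; adjusted p = 0.964 by limma). Tyms, which makes thymidylate, had the highest mean but for Pcna, with a log2 fold change of 0.25 ± 0.26 (standard error; adjusted p = 0.923 by limma). Mki67, a protein of dividing cells, was at 8.29, 9.07 and 11.6 FPKM in WT 1 to WT 3 and at 9.12, 9.60 and 11.5 FPKM in KO 1 to KO 3.

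Of the 12 genes for replication-independent histones 11 were tested, 0 were higher and 1 was lower at an unadjusted limma p under 0.05, where 2.77% of all genes tested were higher and 3.11% lower, and the median log2 fold change was 0.09. The number lower or higher was 0 without WT 2 or WT 3 and 2 without KO 2 or KO 3. H3f3a, which encodes H3.3, was at 392, 349 and 379 FPKM in WT 1 to WT 3 and at 494, 360 and 509 FPKM in KO 1 to KO 3 (log2 fold change 0.27 ± 0.24, standard error; adjusted p = 0.899 by limma). H3f3b, which encodes the same protein, had a log2 fold change of 0.34 ± 0.24 (standard error; adjusted p = 0.855 by limma). H2afy2, a macroH2A variant, was the gene that was lower, at 27.8, 26.1 and 32.1 FPKM in WT 1 to WT 3 and at 22.2, 14.5 and 22.2 FPKM in KO 1 to KO 3. Its groups did not overlap, with a log2 fold change of −0.54 ± 0.22 (standard error), p = 0.0346 by limma, 0.841 after adjustment, and an exact permutation p of 0.1 (the smallest that 3 mice against 3 allow).

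Of 25 genes for histone transcription and 3′ end processing 24 were tested, of which 2 were higher and 0 lower at an unadjusted limma p under 0.05, against 2.77% and 3.11% of all genes tested, with a median log2 fold change of 0.08. Slbp, the stem-loop binding protein, was at 8.92, 8.21 and 8.61 FPKM in WT 1 to WT 3 and at 12.1, 11.05 and 6.92 FPKM in KO 1 to KO 3. KO 1 and KO 2 lay above and KO 3 below every WT library, for a log2 fold change of 0.17 ± 0.24 (standard error; adjusted p = 0.949 by limma). Npat, which activates histone transcription at the gene clusters, was at 4.21, 3.06 and 4.70 FPKM in WT 1 to WT 3 and at 4.90, 4.47 and 3.96 FPKM in KO 1 to KO 3 (log2 fold change 0.14 ± 0.26, standard error; adjusted p = 0.960 by limma).

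The 2 genes that were higher encode Sm proteins, which the U7 ribonucleoprotein shares with the spliceosome. Snrpf was at 27.6, 16.7 and 20.8 FPKM in WT 1 to WT 3 and at 40.3, 30.3 and 34.7 FPKM in KO 1 to KO 3 (log2 fold change 0.69 ± 0.23, standard error; p = 0.0131 by limma, 0.841 after adjustment; exact permutation p = 0.1). Snrpg was at 103, 82.8 and 109 FPKM in WT 1 to WT 3 and at 235, 125 and 129 FPKM in KO 1 to KO 3 (log2 fold change 0.68 ± 0.27, standard error; p = 0.0322 by limma, 0.841 after adjustment; exact permutation p = 0.1). Every KO value lay above every WT value for both genes, as for 5.37% of all genes tested. Snrpe, another Sm protein and the gene with the next highest mean after Snrpg, was at 61.7, 85.6 and 89.9 FPKM in WT 1 to WT 3 and at 173, 103 and 80.1 FPKM in KO 1 to KO 3. Its groups overlapped by KO 3, and its log2 fold change was 0.52 ± 0.29 (standard error; p = 0.104 by limma, 0.841 after adjustment; exact permutation p = 0.3). Leaving out WT 2 or KO 1 ended both calls, with 0 genes of the list under 0.05.

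Of the histone chaperones, which carry histones to DNA, 15 of 15 genes were tested and 0 passed an unadjusted limma p of 0.05 (2.77% of all genes tested were higher and 3.11% lower), with a median log2 fold change of 0.07. Without KO 2 the number was 3. Npm1, a nucleolar chaperone, was at 224, 218 and 236 FPKM in WT 1 to WT 3 and at 302, 224 and 298 FPKM in KO 1 to KO 3 (log2 fold change 0.27 ± 0.22, standard error; adjusted p = 0.887 by limma). Nap1l1, which binds H2A and H2B, had a log2 fold change of 0.32 ± 0.19 (standard error; adjusted p = 0.848 by limma), with every KO value above every WT value. This held for 2 of the 15 chaperones and for 5.37% of all genes tested. The reverse held for 2 chaperones and for 5.70% of all genes tested. Over all 14247 genes tested, 0 had an adjusted p under 0.05 by limma and the smallest was 0.841, while before adjustment 395 genes were higher and 443 lower at that limit. Without KO 2 these numbers were 1034 and 831.

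Markers of other cell types were set beside the histone libraries. The 5 choroid plexus markers (Ttr, Kl, Folr1, Clic6 and Kcnj13) summed to 2946 to 3400 FPKM in WT mice and to 8913, 3010.3 and 10755 FPKM in KO 1 to KO 3. KO 2, the library with the most histone genes, was within the WT range and KO 3 was the highest. The 4 smooth muscle markers summed to 225 to 561 FPKM in WT mice and to 257 to 754 FPKM in KO mice, highest in KO 1. The 5 astrocyte markers summed to 526 to 592 FPKM in WT mice and to 393 to 427 FPKM in KO mice, with every KO sum below every WT sum. Gfap, a filament protein of astrocytes, and Gja1, a gap junction protein, were lower at an unadjusted limma p of 0.0464 and 0.0338, both 0.841 after adjustment. The sums of the pericyte and microglia markers overlapped between the groups. Oligodendrocyte markers summed to 237 to 352 FPKM in WT mice and to 318, 242 and 113 FPKM in KO 1 to KO 3, and neuron markers to 157 to 282 FPKM and to 152, 256 and 103 FPKM. For both, KO 3, in which the H3, H4 and total histone sums were not raised, was the lowest of the 6 libraries. At an unadjusted limma p under 0.05, the markers Anpep (pericyte), C1qa (microglia), Mag and Mobp (oligodendrocyte), Slc17a7 (neuron), Col1a1 (meningeal fibroblast) and Hbb-bs (erythroid) were also lower in KO mice and Kl (choroid plexus) was higher, all with an adjusted p of 0.841, where 3.11% of all genes tested were lower and 2.77% higher. Erythroid markers summed to 1765 to 2425 FPKM in WT mice and to 2341, 1292 and 1209 FPKM in KO 1 to KO 3, and meningeal fibroblast markers to 769 to 1092 FPKM and to 693, 463 and 653 FPKM. Neutrophil markers summed to at most 22.4 FPKM and lymphocyte markers to at most 9.07 FPKM in any library. Their part in the histone values was not tested.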

How the data were processed

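The authors extracted RNA with TRIzol from brain microvessels, used the NEBNext Ultra II Directional kit, trimmed the reads, mapped them with TopHat (mm10, per the submitters' notes) and deposited FPKM values for each gene symbol. The annotation and the program that estimated FPKM were not given in the sources used here, and 0 other columns of per-sample values were present. Libraries were grouped by labelled genotype. For 14247 genes that averaged 1 FPKM or more, limma 3.58.1 (R 4.3.3; trended variance, no scaling, Benjamini-Hochberg adjustment) compared log2(FPKM + 1), and exact permutation tests were added. The fit was tested on simulated data. P-values measure the spread between the mice of each group.

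Members, gene lists and alternatives were chosen with earlier results of these data known. Named members were those at 0 in every WT and above 0 in every KO library, the 2 of each type with the highest mean, and the 5 largest and 5 smallest differences. Genes of the lists were named at an unadjusted p under 0.05 or for the 2 highest means, and others where stated or as background to them. Lengths and stem-loops came from GENCODE M21 (GRCm38), coordinates and promoters from RefSeq GRCm38.p6, in which all 68 members and 62 promoters were matched. Depth was estimated from the spacing of low FPKM values. Python 3.11.15, pandas 2.3.3 and numpy 2.4.6 were used. Alternatives were other filters, pseudocounts, scalings and length limits, a replicate block and leaving out each library. Protein sequences were not used here.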

Additional observations from a re-analysis of the deposited data

How the results depend on the processing

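Of 89 alternatives that left out no library, 87 kept the value within the spread of the mice or, for a number of genes, within 1.5 times. With KO 3 as the sole KO library, a choice made after seeing the data, 4 of 9 results did so, while 12 of the 46 members that averaged 1 FPKM or more lay above and 5 below every WT value, and the log2 ratio of the sums was −0.22 for H3, −0.94 for H4 and −0.20 for all members. The other 2 changes came with all 6 libraries. Without the variance trend 0 replication-independent histones had an unadjusted limma p under 0.05. With the replicate number as a block, 19 of the RNAs without a poly(A) tail did so in place of 7, while 440 genes were higher and 431 lower in place of 395 and 443. The numbers do not pair the mice (correlations of same-numbered deviations 0.037, 0.027 and 0.002), and the block changed no other number beyond 1.5 times.

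With each library left out in turn, members at 0 in WT and above 0 in KO mice numbered 5 to 8 (8 without KO 3), members of the 46 with every KO value above every WT value 6 to 12 (12 without KO 3) and with every KO value below 0 to 3 (3 without WT 1). The log2 ratio of the sums was −0.49 to 0.07 for H1, 0.30 to 0.90 for H2A, 0.34 to 0.61 for H2B, 1.15 to 2.06 for H3, 0.07 to 0.98 for H4 and 0.25 to 0.62 for all members, and the median difference 0.23 to 1.02 for short members. At an unadjusted limma p under 0.05, 218 to 1034 genes were higher and 202 to 831 lower, with the most without KO 2. The range was 0 to 2 for replication-independent histones, 0 to 3 for histone processing, 0 to 3 for chaperones (3 without KO 2), 0 to 1 for S phase and 0 to 17 for RNAs without a poly(A) tail. A library left out leaves 2 mice in its group. The counts of members can then only stay the same or rise, because a condition is removed, and nothing is read from their rise. The cause of the other changes was not tested. At the estimated depths a value of 0 on 500 bases allows 0.51 to 0.93 FPKM.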
